A study of Mus musculus with 6 samples.

Results

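The genes described here mark the cells of brain blood vessels: 33 genes of the 17889 in the deposited table, of which 23 are endothelial and 10 are mural, that is, genes of pericytes and vascular smooth muscle. They were chosen by symbol from what is known of these cells, with earlier results of these data known, through the gene identifiers of GENCODE release M21. All 33 were found, and 33 of 33 passed the filter on low values, a mean of at least 10 normalized counts over the 6 samples. The lowest single value among them was 52.4. C57BL/6J mice were sampled at P28, as juveniles, and stranded mRNA libraries were made from their prefrontal cortex. There were 3 wild-type (WT) samples and 3 samples with the genotype Cyfip2 mutant, titled Hetero. The labels do not give the mutant allele or whether each sample is a different animal, and the spread between samples may be partly technical. In bulk tissue fewer cells of a type and less RNA per cell cannot be told apart.

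Endothelial cells line the vessels of the brain and form the blood-brain barrier. Tight junctions seal the gaps between them, and transporters carry nutrients inwards and drugs outwards. Pericytes share the basement membrane of capillaries and are recruited by PDGF from the endothelium, while smooth muscle cells wrap arterioles and set their width by contraction. Signals of the VEGF, angiopoietin, Notch and TGF-beta families pass between these cells, and Cyfip2 itself encodes a subunit of the WAVE complex, which directs actin assembly.

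None of the vascular genes passed the test between genotypes. Of 33 members 0 were called at a Benjamini-Hochberg adjusted p under 0.05 in limma, and 0 had an unadjusted p under 0.05. Over all 14969 tested genes the shares were 0% and 3.83%. Of the members 0 had groups that did not overlap, where 8.72% of all tested genes had such groups. The 23 endothelial members had a median log2 change, Hetero minus WT, of 0.02, with 15 fitted values above 0 and 8 below. The 10 mural members had a median of 0.03, with 6 above and 4 below, and the median over all tested genes was -0.002. Most changes were also narrowly bounded. For 29 of 33 members the 95% interval lay within 1.5-fold in both directions, as it did for 80.9% of all tested genes. The 4 exceptions were Cldn5, Higd1b, Anpep and Tagln.

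**Figure D1:**
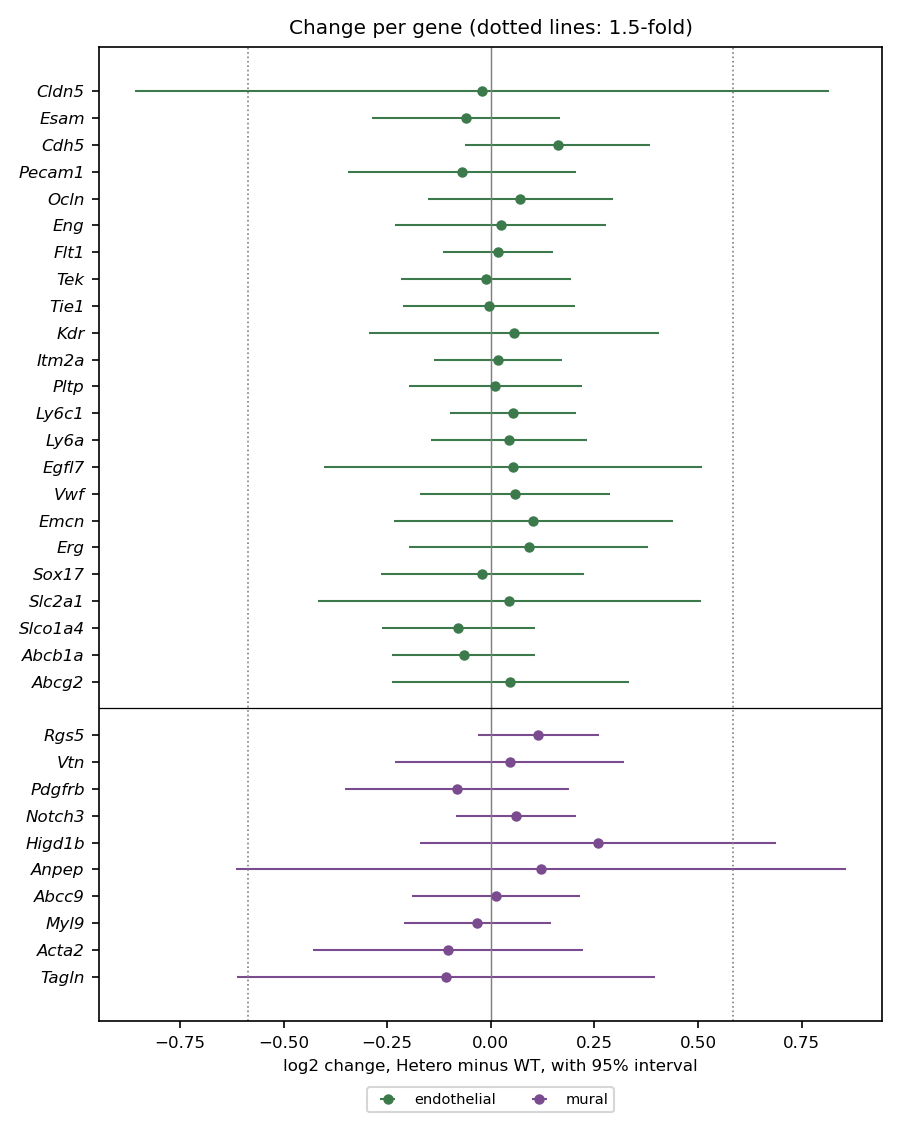
The x axis gives the log2 change, Hetero minus WT, for the 23 endothelial genes (above the line) and the 10 mural genes (below it); points are limma estimates, bars are 95% intervals, and dotted lines mark 1.5-fold. Every interval includes 0, and those of Cldn5, Higd1b, Anpep and Tagln reach past 1.5-fold.

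The mutated gene was lower in the samples titled Hetero. Cyfip2 (chromosome 11, 46193850 to 46312859, GRCm38) read 31933, 30496 and 27503 normalized counts in WT and 20959, 21237 and 18285 in Hetero. The log2 change was -0.57 with a limma adjusted p of 0.31, and an exact two-sided permutation test gave 0.1, the smallest p that 3 against 3 samples allow. The presence of neurons was checked on 10 neuron markers, with 0 at 0 in any sample. They summed to 377566 to 389760 normalized counts in WT and 356477 to 378119 in Hetero. These markers do not tell prefrontal cortex from other brain regions. Column totals lay between 29879143 and 30735443 because the authors had scaled the samples to each other. The spacing of low values puts the depth at roughly 25500000 reads in the shallowest library, WT sample 3, and 43900000 in the deepest, Hetero sample 3.

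Promoter sequences of 4 members are shown because their values are the ones the account returns to: Cldn5 and Slc2a1, which moved in opposite directions in sample 3 of each group, Tie1 as the receptor with the smallest fitted change, and Myl9 as the contractile gene with the smallest. Each runs 5′ to 3′ on the gene's strand, from 250 bases before to 50 bases after the start site, from RefSeq on GRCm38.p6. Motifs were searched separately, so their matches may overlap. Capitals mark GGGCGG on either strand (the GC box) in Cldn5 and Slc2a1, AGGAAG on either strand (a core bound by ETS factors such as Erg) in Tie1, and the CArG box, the site of serum response factor, in Myl9.
Cldn5 promoter (chr16:18776597-18776896, plus strand): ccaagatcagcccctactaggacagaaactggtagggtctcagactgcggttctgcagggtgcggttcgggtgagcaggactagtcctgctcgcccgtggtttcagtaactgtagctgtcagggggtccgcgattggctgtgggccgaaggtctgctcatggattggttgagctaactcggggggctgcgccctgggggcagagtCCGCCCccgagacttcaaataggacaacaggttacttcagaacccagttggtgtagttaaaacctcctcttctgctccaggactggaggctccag
Slc2a1 promoter (chr4:119108495-119108794, plus strand): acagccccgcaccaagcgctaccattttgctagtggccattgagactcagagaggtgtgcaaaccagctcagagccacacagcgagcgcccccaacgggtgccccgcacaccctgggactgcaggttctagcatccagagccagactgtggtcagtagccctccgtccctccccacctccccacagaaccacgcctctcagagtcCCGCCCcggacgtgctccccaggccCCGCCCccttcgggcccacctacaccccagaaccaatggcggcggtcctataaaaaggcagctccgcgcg
Tie1 promoter (chr4:118489800-118490099, minus strand): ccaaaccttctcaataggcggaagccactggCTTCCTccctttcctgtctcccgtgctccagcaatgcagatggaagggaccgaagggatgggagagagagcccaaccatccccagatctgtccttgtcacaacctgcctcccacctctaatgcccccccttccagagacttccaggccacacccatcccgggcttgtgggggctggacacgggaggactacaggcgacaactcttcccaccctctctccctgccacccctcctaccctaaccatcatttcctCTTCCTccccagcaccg
Myl9 promoter (chr2:156775214-156775513, plus strand): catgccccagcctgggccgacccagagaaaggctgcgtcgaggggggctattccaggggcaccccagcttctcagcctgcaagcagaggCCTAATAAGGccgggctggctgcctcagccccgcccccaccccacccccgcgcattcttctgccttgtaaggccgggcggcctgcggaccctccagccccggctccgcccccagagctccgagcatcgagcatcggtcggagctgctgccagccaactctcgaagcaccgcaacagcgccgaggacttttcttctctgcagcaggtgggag
Promoters were listed for 24 of the 33 members, in 32 entries. A member was counted if any of its entries held a match, whereas the shares over all promoters count single entries. Members with several entries had more chances of a match, so the counts and the shares are not like for like. AGGAAG was present in 11 of the 17 endothelial members listed and in 0 of the 7 mural members listed, and in 35.4% of all 32851 promoters searched. The CArG box was present in 0 of 17 and in 1 of 7, that of Myl9, and in 1.63% of all promoters. It was searched as CCWWWWWWGG, with W for A or T, so boxes with another base were not counted. Members without a listed promoter were not searched. GGGCGG was found in 10 of 17 and in 4 of 7, and in 35.7% of all promoters. These are letter matches in a window of 300 bases, and no binding was measured.

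Among the junction and adhesion genes, Cldn5, which encodes claudin-5, the main tight junction protein of brain endothelium, spread most. Cldn5 (chromosome 16, 18776847 to 18778262, plus strand) read 978, 832 and 1480.2 normalized counts in WT samples 1, 2 and 3, and 823, 866 and 1619 in Hetero samples 1, 2 and 3. Sample 3 of each group stood above the others, and the groups overlapped. WT averaged 1097 ± 339.9 and Hetero 1103 ± 448 (SD, n = 3 each). The log2 change was -0.02, its standard error (SE) 0.34 and its 95% interval -0.86 to 0.82. Its residual SD, the spread around the group means in log2 units, was 0.49, at percentile 95.4 of all tested genes.

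Cdh5, the gene of VE-cadherin, the adherens junction protein of endothelium, had the largest fitted change among the endothelial members with all samples in the fit. Cdh5 (chromosome 8, 104101625 to 104144511) read 716, 571 and 665 in WT and 665, 747 and 765 in Hetero. WT sample 2 was the lowest, and the groups overlapped. The log2 change was 0.16 with an SE of 0.10 and an unadjusted p of 0.14 in limma, which did not pass. Without WT sample 2 it was 0.07. Pecam1, an adhesion molecule of endothelial contacts, differed by -0.07 (SE 0.12), and Esam, another, by -0.06 (SE 0.10). Ocln, which encodes occludin, a second tight junction protein, differed by 0.07 (SE 0.10).

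The receptor genes had fitted changes between -0.01 and 0.06. Flt1, a VEGF receptor that binds its ligand tightly and signals weakly, was the steadiest of them (chromosome 5, 147561604 to 147726011). It read 2243, 2080 and 2254 in WT and 2162, 2275 and 2215 in Hetero. All 6 samples lay within a factor of 1.09, and the log2 change was 0.02 with a 95% interval from -0.12 to 0.15. Kdr, the principal signalling receptor for VEGF, varied more, reading 857, 695 and 954 in WT and 794, 754 and 1066 in Hetero. Its highest value in each group was again sample 3, and its log2 change was 0.06 (SE 0.15). Tek, the angiopoietin receptor, and Tie1, its partner, differed by -0.01 (SE 0.09) and -0.005 (SE 0.09). Eng, a TGF-beta co-receptor, differed by 0.02 (SE 0.11).

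Among the transporter genes, Slc2a1 had the reverse order of samples. Slc2a1, the glucose transporter of barrier endothelium, is also made by astrocytes, so its bulk value is not endothelial alone. Slc2a1 (chromosome 4, 119108711 to 119137983) read 4273, 4447 and 2894 in WT and 4258, 4410 and 3216 in Hetero. Sample 3 of each group was the lowest and the other 4 samples were close to each other. The log2 change was 0.05 (SE 0.19). Abcg2, a drug efflux pump, read 569, 638 and 439 in WT and 544, 581 and 556 in Hetero, with WT sample 3 the lowest of all. Abcb1a, the gene of the P-glycoprotein efflux pump, differed by -0.06 (SE 0.08) and Slco1a4, an organic anion transporter, by -0.08 (SE 0.08). Abcb1a has a close paralog, Abcb1b, and reads of such copies can be assigned to either.

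The surface and secreted proteins had 7 of 7 fitted values above 0, between 0.01 and 0.10, none of which passed. Egfl7, a secreted endothelial matrix protein, spread most (chromosome 2, 26580014 to 26593120). It read 836, 829 and 1151 in WT and 849, 823 and 1275 in Hetero. As for Cldn5, sample 3 of each group stood above the other 4, and the log2 change was 0.05 (SE 0.20). Emcn, which encodes the sialomucin endomucin of capillaries and veins, differed by 0.10 (SE 0.15), and Vwf, the von Willebrand factor of clotting, by 0.06 (SE 0.10). Pltp, a phospholipid transfer protein, differed by 0.01 (SE 0.09) and Itm2a, a membrane protein, by 0.02 (SE 0.07). Ly6c1 and Ly6a, small membrane-anchored proteins, differed by 0.05 (SE 0.07) and 0.04 (SE 0.08). The Ly6 genes are a cluster of similar copies that can share reads, so their values are uncertain.

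Neither endothelial transcription factor passed the test. Erg, an ETS factor that keeps endothelial identity, read 232, 205 and 199 in WT and 195, 248 and 237 in Hetero, a log2 change of 0.09 (SE 0.13). Sox17, a factor of arterial endothelium, read 209, 221 and 201 in WT and 216, 212 and 193 in Hetero, a log2 change of -0.02 (SE 0.11). For each the WT and Hetero values overlapped.

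**Figure D2:**
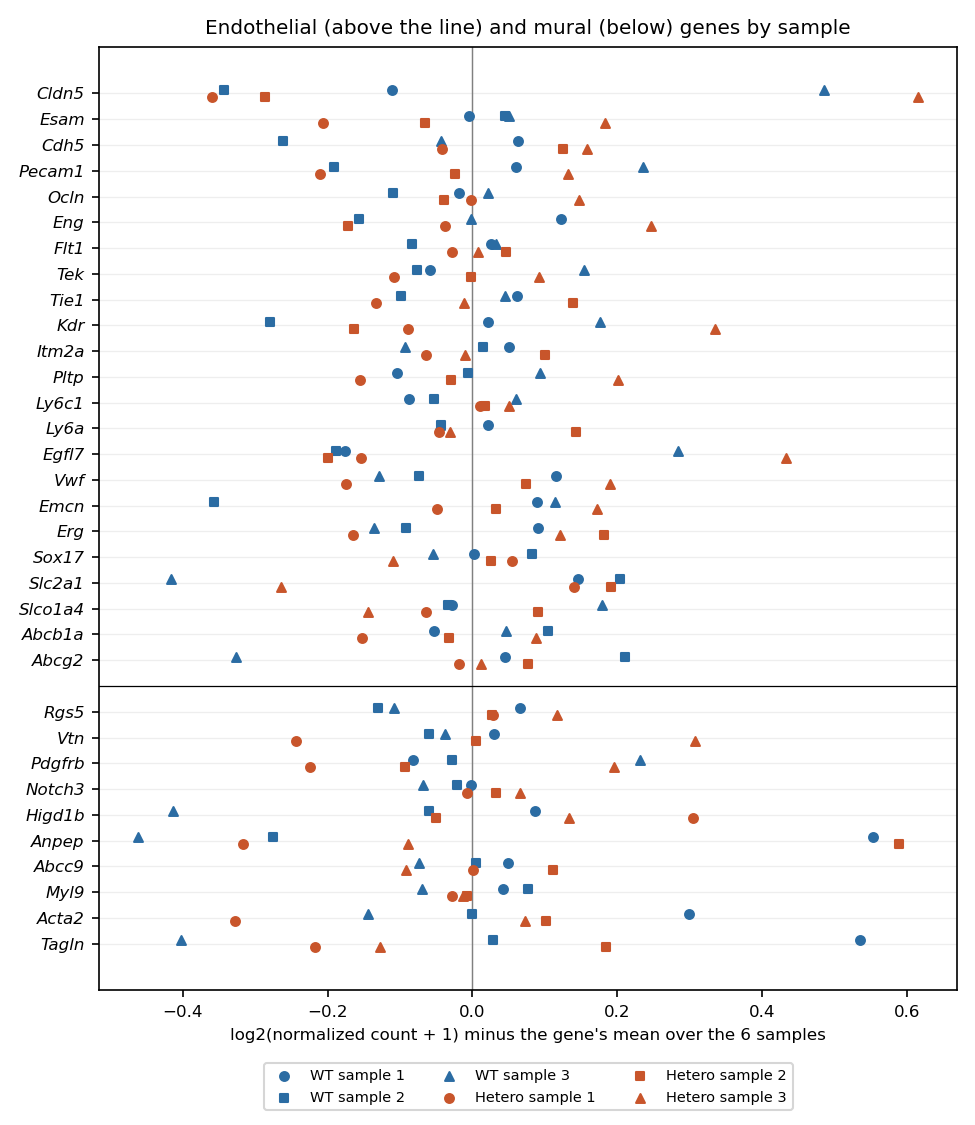
Value of each of the 33 genes in each of the 6 samples, as log2(normalized count + 1) minus the gene's mean over the samples (x axis); colours mark the genotype and shapes the sample number. WT and Hetero overlap for every gene, and sample 3 of each group lies to the right for Cldn5 and Egfl7 and to the left for Slc2a1.

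Among the mural genes, 6 of 7 pericyte genes and shared mural receptors had fitted values above 0. This group holds Notch3 and Pdgfrb and is not of pericytes alone. Of the contractile genes, 3 of 3 had values below 0. None of the mural genes passed, and the difference between these gene groups was not tested. Single libraries set several of the signs: without WT sample 1 Acta2 stood at 0.021 and Tagln at 0.13, and without Hetero sample 2 Abcc9 stood at -0.039 and Anpep at -0.14. Rgs5, a regulator of G-protein signalling enriched in pericytes, had the smallest unadjusted p of the 33 members, 0.11 in limma. Rgs5 (chromosome 1, 169655501 to 169695813) read 4399, 3839 and 3899 in WT and 4283, 4282 and 4557 in Hetero. WT sample 1 lay inside the Hetero range, so the groups overlapped. WT averaged 4046 ± 307 and Hetero 4374 ± 158 (SD, n = 3 each). The log2 change was 0.11, its SE 0.07 and its 95% interval -0.03 to 0.26. Without WT sample 1 the change was 0.18, the 1 member and setting at an unadjusted p under 0.05, with an adjusted p of 0.95. Over its alternatives the adjusted p of Rgs5 ranged from 0.93 to 1.

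The mural receptors differed in spread. Notch3, the Notch receptor of smooth muscle and pericytes, read 952, 940 and 909.9 in WT and 949, 976 and 998 in Hetero. Its values overlapped between the groups, with a log2 change of 0.06 (SE 0.06) and a residual SD of 0.035, at percentile 3.09 of all tested genes. Pdgfrb, the PDGF receptor that recruits pericytes, read 1098, 1140 and 1364 in WT and 995, 1090 and 1332 in Hetero. Its highest value in each group was sample 3, as for Cldn5, and its log2 change was -0.08 (SE 0.12).

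Other pericyte genes differed in how tightly they were measured. Abcc9, the sulphonylurea receptor subunit of the pericyte potassium channel, differed by 0.01 (SE 0.09). Vtn, which encodes vitronectin, a matrix protein made by pericytes, read 1651, 1552 and 1575 in WT and 1365, 1623 and 2001 in Hetero, with both the lowest and the highest value in Hetero and a log2 change of 0.05 (SE 0.12). Higd1b, a mitochondrial protein gene enriched in pericytes, read 74.5, 67.2 and 52.4 in WT and 86.8, 67.7 and 77.0 in Hetero. It was the member with the lowest counts. With all samples in the fit it also had the largest fitted change, 0.26 (SE 0.19), with a 95% interval from -0.17 to 0.69. Without WT sample 3 the change was 0.12. Anpep, aminopeptidase N, which is found on pericytes and also on fibroblasts, read 323, 181 and 159 in WT and 176, 331 and 206 in Hetero. WT sample 1 and Hetero sample 2 stood above the other 4 samples, and the log2 change was 0.12 (SE 0.32).

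Among the contractile genes, Acta2 and Tagln shared the highest samples of Anpep. Acta2, smooth muscle actin (chromosome 19, 34241090 to 34255590), read 810.2, 658 and 596 in WT and 524, 706 and 692 in Hetero. Tagln, which encodes the actin-binding protein transgelin (chromosome 9, 45929619 to 45936058), read 432, 304 and 225 in WT and 256, 338 and 272 in Hetero. For both genes the highest value was WT sample 1 and the highest of the Hetero group was sample 2. Their log2 changes were -0.10 (SE 0.14) and -0.11 (SE 0.22). Myl9, a regulatory light chain of smooth muscle myosin, was level by comparison. It read 518, 531 and 479.8 in WT and 494, 501 and 499 in Hetero, a log2 change of -0.03 (SE 0.08).

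The place of the highest and lowest samples was then counted over the members. The combinations counted (highest in sample 3 of both groups, lowest there, or highest in WT sample 1 and Hetero sample 2) were picked after these values were seen, and 12 of 33 members, 7 endothelial and 5 mural, followed none of them. In the first, 10 of 23 endothelial members had their highest value in sample 3 of both groups, or 43.5%, against 1 of 10 mural members and 18.1% of all tested genes. These 10 were Cldn5, Esam, Pecam1, Ocln, Tek, Kdr, Pltp, Ly6c1, Egfl7 and Emcn. Slc2a1 and Sox17, 8.70% of the endothelial members, had their lowest value in sample 3 of both groups, as did 19.2% of all tested genes. The level of a group averages its genes' log2 values after each gene is centred on its 6 samples. Junction genes had levels of 0.15 in WT sample 3 and 0.25 in Hetero sample 3, against -0.17 to -0.003 in the other samples. Cldn5 carried much of this: the level of the other 4 junction genes was 0.07 and 0.16 in those samples, and Cdh5 stood at -0.04 in WT sample 3. Transporter genes had levels of -0.13 and -0.08 there, against -0.02 to 0.12 in the others. The 4 transporters differed there: in WT sample 3 Slc2a1 stood at -0.42 and Abcg2 at -0.33, but Slco1a4 at 0.18 and Abcb1a at 0.05, and of the 4 Slc2a1 was the 1 gene lowest in sample 3 of both groups. Receptor genes had levels of 0.08 in WT sample 3 and 0.13 in Hetero sample 3, against -0.14 to 0.03 in the other samples. Surface and secreted genes had 0.04 and 0.14, against -0.10 to 0.02, and transcription factors -0.095 and 0.005, against -0.06 to 0.10. Globin messages of red blood cells, which are carried in the vessels, followed the junction, receptor, and surface and secreted genes in this. Hbb-bs, a beta-globin chain, read 8701, 4579 and 14068 in WT and 6614, 6638 and 16979 in Hetero, and all 4 globin genes were highest in sample 3 of each group; these are near-identical copies, so the split between them is uncertain. Whether the blood content bears on the vascular values was not tested.

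The libraries also differed in base composition. The tenth of tested genes richest in G and C, at 58.0% or more, had a median centred log2 value of 0.03 in WT sample 3 and 0.09 in Hetero sample 3, and between -0.05 and 0.01 in the other samples. WT sample 1 and Hetero sample 2 were lowest, at -0.048 and -0.047, and highest for the tenth poorest in G and C, at 0.07 and 0.06. Cldn5 has a transcript of 60.5% G and C and stood at 0.49 in WT sample 3 and 0.62 in Hetero sample 3. Slc2a1, at 54.0%, stood at -0.42 and -0.26. In the same samples Notch3, at 59.6%, stood at -0.07 and 0.07, and Emcn, at 40.7%, stood at 0.11 and 0.17. With trends in base composition and transcript length removed, the log2 change was -0.02 for Cldn5 and 0.04 for Slc2a1. Sample 3 stood on the same side in both groups, so the change between genotypes could hardly move. The part of base composition in the sample 3 values was not tested. With sample 3 of each group left out, which like the trend removal was chosen after seeing the data, 0 of 33 members were called and 0 had an unadjusted p under 0.05, and the log2 change was -0.10 for Cldn5 and -0.01 for Slc2a1.

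In the last combination, 4 of 10 mural members (Anpep, Abcc9, Acta2 and Tagln) were highest in WT sample 1 and Hetero sample 2, as were 4 of 23 endothelial members and 15.5% of all tested genes. The contractile level was 0.29 in WT sample 1 and 0.09 in Hetero sample 2, against -0.21 to 0.03 in the other samples. In Hetero sample 3 it was -0.02. The level of pericyte genes and shared mural receptors was 0.10 in WT sample 1, 0.089 in Hetero sample 2 and 0.091 in Hetero sample 3. In the other 3 samples it was -0.13 to -0.07. Markers of fibroblasts and meninges, the membranes over the cortex, whose arteries carry smooth muscle, had their highest levels in WT sample 1 and Hetero sample 2. That level was 0.22 in WT sample 1, 0.27 in Hetero sample 2 and 0.16 in Hetero sample 3, against -0.28 to -0.14 in the other 3. All 18 of these markers were detected, with a summed normalized count of 9146 to 11537 in WT and 9012 to 12136 in Hetero, and 0 were at 0 in any sample. Over all tested genes the deviations of WT sample 1 and Hetero sample 2 from their group means correlated at 0.18, and those of the 2 samples numbered 3 at 0.23, as a description across genes. The part of meningeal tissue or base composition in the mural values was not tested.

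**Figure D3:**
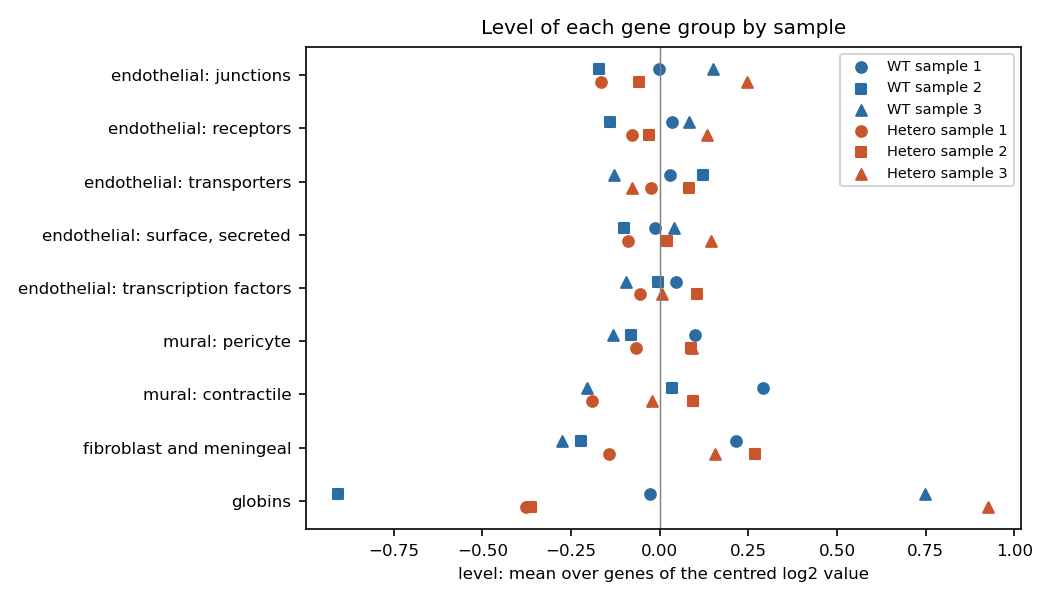
Level of each group of members, and of fibroblast and meningeal markers and globins, in each sample on the x axis, in log2 units, with each gene centred on its 6 samples. Junction genes, receptors, surface and secreted genes and globins are highest in sample 3 of each group. Contractile genes, meningeal genes, and pericyte genes with shared mural receptors are high in WT sample 1. The genotypes overlap for every group.

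**Figure D4:**
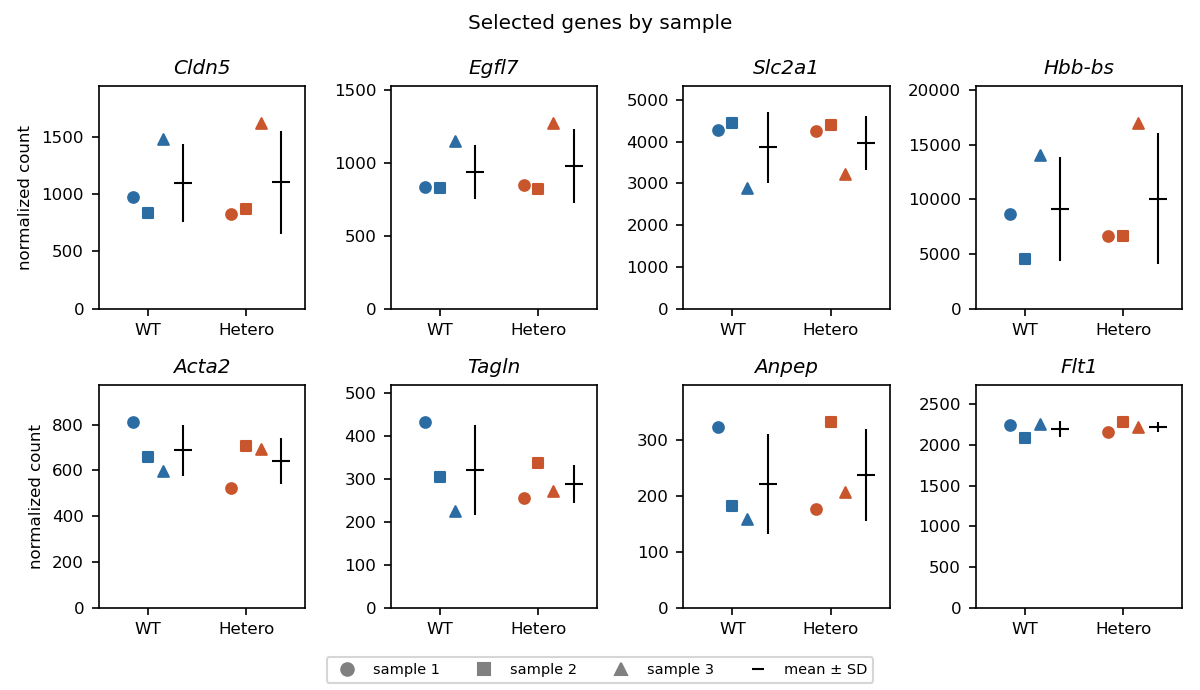
Normalized counts of 8 genes (y axes, from 0) by genotype, with 1 point per sample, shapes for the sample number, and the mean ± SD of 3 samples. Cldn5, Egfl7 and Hbb-bs are highest in sample 3 of each group and Slc2a1 is lowest there, Acta2, Tagln and Anpep peak in WT sample 1 and Hetero sample 2, and Flt1 lies between 2080 and 2275 throughout.

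Levels between genes were compared per kilobase of merged exon length, which understates the level of genes with long, rarely used transcripts. Among endothelial members Slc2a1 had the highest mean, 1117 normalized counts per kilobase, followed by Itm2a at 969, Pltp at 912 and Cldn5 at 777. The lowest were Erg at 63.3, Sox17 at 43.7 and Emcn at 34.8. Among mural members Rgs5 led at 926 per kilobase and Vtn followed at 802, while Anpep at 55.5 and Abcc9 at 49.4 were lowest. The contractile genes Myl9, Acta2 and Tagln lay between, at 434, 303 and 153 per kilobase.

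Other genes of the same cells and pathways were tested as lists. Of 43 vascular ligands and receptors tested (VEGF, angiopoietin, PDGF, Notch, TGF-beta, BMP, Wnt, Norrin, sphingosine and ephrin pathways) 0 were called, with 20 fitted values above 0 and 23 below and a median log2 change of -0.01. The smallest unadjusted p values belonged to Nrp2, a co-receptor of VEGF and semaphorins, at -0.19 (SE 0.09), and Wnt7b, a Wnt ligand that induces barrier properties, at -0.21 (SE 0.10). Nrp2 read 693, 614 and 617 in WT and 540.2, 613 and 530.1 in Hetero, with the groups just apart. Of 26 other barrier genes 0 were called, with a median of -0.01, and those with the smallest p were the amino acid transporter Slc38a3, which astrocytes also express, at -0.17 (SE 0.08), and Abcb1b at -0.31 (SE 0.16).

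Of 47 other endothelial genes tested 0 were called, with 30 fitted values above 0 and 17 below and a median log2 change of 0.03. Car4, a carbonic anhydrase on the surface of brain capillaries (chromosome 11, 84957786 to 84966044), read 1103, 1179 and 1215 in WT and 1273, 1309 and 1308 in Hetero. All Hetero values lay above all WT values, and the log2 change of 0.15 (SE 0.06) had an unadjusted limma p of 0.039, or 1 after adjustment. Lama4, a laminin chain of the vascular basement membrane, read 519, 458 and 564 in WT and 521, 673 and 700.1 in Hetero, a change of 0.29 (SE 0.13) with overlapping groups and an adjusted p of 1.

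Of 38 other mural genes tested 0 were called, with 22 fitted values above 0 and 16 below and a median log2 change of 0.01. Cspg4, which encodes the NG2 proteoglycan of pericytes and of oligodendrocyte precursors, read 836, 916 and 937 in WT and 664, 760 and 816 in Hetero. All Hetero values lay below all WT values, and the log2 change of -0.27 (SE 0.09) had an adjusted p of 1 in limma. Of 9 oligodendrocyte precursor markers tested 9 had fitted values below 0, with a median of -0.21, and their summed normalized count was 17451 to 20134 in WT and 16108 to 17221 in Hetero. The pericyte genes and shared mural receptors had a median of 0.06, and which cells the Cspg4 difference came from was not tested. Pdlim3, an actin-associated protein gene, averaged 18.9 ± 6.57 in the WT samples and 31.2 ± 6.98 in the Hetero samples (SD, n = 3 each). Its log2 change of 0.73 (SE 0.32) did not pass, with an adjusted p of 1 in limma.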

How the data were processed

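Prefrontal cortex messenger RNA was measured in 6 samples, grouped by their titles. The authors deposited normalized counts per gene, used as a signal: they are not whole, never negative and have similar totals. GRCm38 is the build, and DESeq2 1.19.11, Salmon 0.11.2 and R 3.6.0 are the tools, per the submitters' processing notes, which give no roles; the scaling formula is not given in the sources used here. In each sample a single step divided only 15.5% to 27.9% of values under 60 into whole multiples (within 0.02), so reads were not recovered, no count test was run, and depth is an estimate, the column total divided by that step.

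Identifiers were matched to GENCODE M21 (17875 of 17889). Values were analysed as log2(value + 1) for genes with a mean of at least 10, so changes of low genes are understated, with limma 3.58.1 in R 4.3.3 (trend and robust eBayes), two-sided, with Benjamini-Hochberg adjustment over 14969 genes and a threshold of 0.05. On data simulated for this comparison over 14969 genes, limma called 12% of genes altered 1.25-fold and 54% of those altered 1.5-fold. It called 88% for 2-fold and 92% for 3-fold, plus 6 unaltered genes. The simulation altered 50 genes at each fold and drew each sample's noise independently from the gene's measured spread. In the measured data 0 genes were called, and Cyfip2, at -0.57, had a limma adjusted p of 0.31. These rates may therefore overstate what could be called here. Named were all members, Cyfip2 and the 2 genes with the smallest p of each other list; globins were named after their values were seen. Members, lists and motifs were chosen with earlier results of these data known. Alternatives were other pseudocounts, filters, scalings (TMM factors, median centring), limma without trend and robust fitting, a replicate block and leaving out samples, and, added after the data were seen, GC content and transcript length trends removed and sample 3 of both groups left out.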

Additional observations from a re-analysis of the deposited data

How the results depend on the processing

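In all 16 alternatives 0 endothelial and 0 mural members were called, and the lowest adjusted p of any member was 0.93. The endothelial median ranged from -0.02 to 0.06 and the mural median from -0.04 to 0.07. Of 33 members 9 kept the sign of the change throughout (Abcb1a, Cdh5, Erg, Higd1b, Ly6c1, Myl9, Notch3, Ocln and Rgs5) and 24 did not, in 54 of 528 member values, all from leaving out samples. Sizes moved among those 9 too: Abcb1a ranged from -0.13 to -0.0048, Cdh5 from 0.071 to 0.23, Erg from 0.0087 to 0.20, Higd1b from 0.11 to 0.37, Ly6c1 from 0.023 to 0.097, Myl9 from -0.077 to -0.0023, Notch3 from 0.025 to 0.079, Ocln from 0.015 to 0.11 and Rgs5 from 0.060 to 0.18. In size, Cdh5 and Higd1b led their classes in every fit that kept all samples, but often not once samples were dropped. Cldn5 led the endothelial members at -0.20 with WT sample 2 dropped, at 0.22 when WT sample 3 was, and at -0.33 when Hetero sample 3 was. Egfl7 led at 0.17 once Hetero sample 2 was dropped, and Esam at -0.16 once both samples numbered 3 were. Anpep led the mural members at 0.43 with WT sample 1 dropped and at 0.31 with Hetero sample 1 dropped. Tagln led at -0.34 when WT sample 3 was dropped and at -0.30 when both samples numbered 3 were. Cdh5 and Higd1b each led their class in its remaining fits. The log2 ranges above for the 9 members and the next ones come from leaving out 1 sample, or sample 3 of both groups. Cldn5 ranged from -0.33 to 0.22, Pecam1 from -0.18 to 0.031, Esam from -0.17 to 0.029, Flt1 from -0.021 to 0.038, Kdr from -0.098 to 0.16, Tek from -0.062 to 0.062, Tie1 from -0.075 to 0.061 and Eng from -0.093 to 0.12. Slc2a1 ranged from -0.15 to 0.19, Abcg2 from -0.10 to 0.16, Slco1a4 from -0.14 to 0.044, Itm2a from -0.028 to 0.054, Pltp from -0.087 to 0.091, Ly6a from -0.016 to 0.078, Egfl7 from -0.15 to 0.21, Vwf from -0.071 to 0.16, Emcn from -0.050 to 0.19 and Sox17 from -0.052 to 0.030. Vtn ranged from -0.10 to 0.18, Pdgfrb from -0.20 to 0.015, Abcc9 from -0.039 to 0.062, Anpep from -0.14 to 0.43, Acta2 from -0.26 to 0.035 and Tagln from -0.34 to 0.13.

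Over all genes, 0 were called in the analysis as reported, 2 with the replicate block (Cyfip2 at -0.57, adjusted p 0.0016, and Jun), 1 with GC and length trends removed (Cyfip2 at -0.56, adjusted p 0.029), and 0 to 4 when samples were left out, where Cyfip2 ranged from -0.63 to -0.50. The 4 came without sample 3 of both groups, Cyfip2 among them (adjusted p 0.014). The labels do not say whether the replicate numbers pair the samples, and this was not tested. Same-numbered samples deviated from their group means with correlations of -0.01, 0.004 and 0.23. WT sample 1 and Hetero sample 2 correlated at 0.18, and WT sample 3 and Hetero sample 2 at -0.18. The replicate block therefore rests on a shared number only. Estimated depth was about 25500000 to 43900000 reads. Higd1b, the member with the lowest counts, had a residual SD of 0.22, at percentile 78.0 of all tested genes. Cldn5 and Anpep, with higher counts, had 0.49 and 0.51. The part of depth in these spreads was not tested.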

Other observations

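Astrocyte endfeet cover the vessel wall. Of their 12 markers 2 had an unadjusted limma p under 0.05, where the share over all tested genes was 3.83%. These 2 lay in opposite directions. Kcnj10, the potassium channel of astrocyte endfeet, read 7440, 7245 and 7320 normalized counts in WT and 8106, 8156 and 8488 in Hetero. All Hetero values lay above all WT values, a log2 change of 0.17 (SE 0.05), but the limma adjusted p was 1. Kcnj10 was the 1 marker of the 12 whose groups did not overlap, where 8.72% of all tested genes had such groups. Slc1a2, a glutamate transporter, differed by -0.14 (SE 0.06), also with an adjusted p of 1 in limma, and the 12 markers had a median change of 0.02. Thbs1, which encodes the anti-angiogenic protein thrombospondin-1, read 118, 71.0 and 88.4 in WT and 135, 159.7 and 133 in Hetero, a log2 change of 0.65 (SE 0.19) with an adjusted p of 1 in limma. The other 14 hypoxia and shear response genes tested did not reach an unadjusted p of 0.05.

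Markers of neighbouring cells gave 0 called genes in each list in limma. Fibroblast and meningeal markers had 15 of 18 fitted values above 0 and a median of 0.17, and the 2 with the smallest p lay in opposite directions. Pdgfra, which oligodendrocyte precursors also express, differed by -0.23 (SE 0.08). Slc47a1, a transporter, read 215, 97.3 and 66.0 in WT and 255, 223 and 236 in Hetero, a log2 change of 1.08 (SE 0.38). Perivascular macrophage markers had 5 of 9 above 0 and a median of 0.02. Microglia markers had 12 of 12 below 0 and a median of -0.09. Neuron markers had 6 of 10 below 0 and a median of -0.03. Of the choroid plexus and ependymal markers 5 of 10 passed the limit for testing and 3 were at 0 in at least 1 sample. Of the 5 tested, 3 had fitted values above 0 and 2 below. Kl, the gene of klotho, read 30.8, 29.0 and 24.1 in WT and 47.7, 52.9 and 45.0 in Hetero. Its log2 change was 0.78 (SE 0.21), with an adjusted p of 1 in limma. Ttr, also on this list, read 4.32, 26.5 and 14.6 in WT and 27.2, 11.3 and 42.6 in Hetero. Its groups overlapped, with a log2 change of 0.91 (SE 0.65). Whether the Kl values come from choroid plexus was not tested. Of 7 erythroid markers 5 were above 0, with a median of 0.11.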
